A study of Danio rerio with 37 samples.

Results

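The egg coat and maternal genes of the oocyte followed here are 6 of the 32520 genes in the count tables: the egg coat genes zp2.1 (ENSDARG00000086352), zp3a.1 (ENSDARG00000042129) and zp3b (ENSDARG00000039828), the nucleoplasmin genes npm2a (ENSDARG00000076391) and npm2b (ENSDARG00000053963), and zar1 (ENSDARG00000019706). They were chosen as a named list, by symbol in the TPM tables, and joined to the counts by Ensembl identifier. All 6 passed the filter on low counts and are among the 16321 genes tested. RNA of whole zebrafish embryos was sequenced in 37 libraries at 6 hours after fertilization, when gastrulation begins. The labels name an RNA-targeting CRISPR effector (RfxCas13d, DjCas13d or Cas7-11), a dose of GFP (10 pg or 50 pg) and a knockdown or a control arm, which gives 12 groups. Both arms of every pair carry the name of the effector and the same GFP dose. What the control embryos received in place of the knockdown reagent, and the form in which GFP was given, are not stated in the labels. There were 3 libraries per group, except 2 in the 10 pg RfxCas13d knockdown and 4 in each arm of Cas7-11 at 10 pg. Whether the replicates of a group are separate clutches is not in the labels, and p-values therefore refer to the spread between these libraries, which may be technical. The design text of the series speaks of how maternal mRNAs are cleared when primary miR-430 is knocked down, while the sample titles name GFP alone.

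The zebrafish egg loads its cytoplasm with mRNA during oogenesis, and the embryo lives on this maternal supply until its own genome is switched on. Many maternal mRNAs, though not all, are then cleared by the start of gastrulation, in zebrafish in part through the microRNA miR-430, which the embryo itself transcribes. The zona pellucida (zp) genes encode glycoproteins that assemble into the egg coat, called the chorion in fish, and they form a family of many similar copies in zebrafish. Nucleoplasmins of the npm2 type are histone-binding chaperones stored in the egg, and mouse Npm2 is a maternal-effect gene that shapes the chromatin of the early embryo. Zar1 (zygote arrest 1) is an RNA-binding protein of the oocyte. In zebrafish oocytes it binds egg coat mRNAs and holds back their translation, and in mouse embryos its loss arrests development after fertilization.

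GFP, the RNA named in the titles, stood at 4.26 to 445.85 TPM in knockdown libraries and 223.56 to 21929.77 TPM in control libraries, with no overlap between the arms in 6 of 6 comparisons. Reads assigned to genes numbered 3944559 to 8034012 per library with RfxCas13d, 5945891 to 7337941 with DjCas13d and 17432069 to 23991611 with Cas7-11. Malat1, a noncoding RNA of the nucleus, had 5285.7 to 6356.3 CPM in 5 libraries, called malat1-rich below, and 416 to 2272.3 CPM in the other 32. The malat1-rich libraries are knockdown replicates 1 and 2 of DjCas13d at 10 pg, control replicates 1 and 3 of RfxCas13d at 10 pg and control replicate 1 of RfxCas13d at 50 pg. In them 5.03% to 9.653% of reads came from mitochondrial mRNAs, against 1.133% to 4.577% in the others. All 22 markers of gastrula cell types had a median of at least 1 TPM over the libraries. None of the 12 ovarian follicle cell markers found in the tables did, 7 had a median of 0, and fshr, the follicle-stimulating hormone receptor, had no read in any library.

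All 6 transcripts were detected in every library. In TPM, which is per transcript length and so allows genes to be compared, npm2b and zp2.1 were the most abundant, at 282 ± 66.9 and 194 ± 60.1 TPM over the control libraries (SD, n = 19). For zp2.1 this rank holds in TPM only: in scaled CPM its controls (2.54 to 33 CPM) were below those of zp3a.1 and zp3b with each effector. In TPM the other egg coat transcripts followed, zp3a.1 at 70.0 ± 15.3 TPM and zp3b at 54.1 ± 22.8 TPM, and zar1 (23.5 ± 7.37 TPM) and npm2a (9.89 ± 3.61 TPM) were lowest. Of all genes, 98.3% had a lower mean TPM than npm2b and 78.4% a lower one than npm2a. Counts ran from 12 to 183 reads per library for npm2a, 52 to 236 for zp2.1 and 57 to 380 for zar1. They were higher for zp3a.1 (105 to 1092), zp3b (275 to 1282) and npm2b (369 to 3076). Counting error is therefore largest for npm2a, zp2.1 and zar1.

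In TPM, the range over the 12 group means set the members apart. The group with the highest mean TPM exceeded the lowest by 7.09-fold for npm2a, 3.92-fold for zp3b and 3.74-fold for zar1, against 2.14-fold for zp2.1, 2.08-fold for npm2b and 1.7-fold for zp3a.1. For npm2a, zp3b and zar1 the highest group in TPM was the 50 pg RfxCas13d knockdown. In scaled CPM this held for npm2a and zar1 but not for zp3b. There the 50 pg RfxCas13d controls were highest for zp3b, at 91.0 CPM against 74.8 CPM in the knockdown. The range of zp2.1 was also wider in scaled CPM, from 5.18 CPM (10 pg Cas7-11 controls) to 27.0 CPM (10 pg RfxCas13d controls). When the 12 groups were ordered by mean TPM, nearly all neighbours overlapped in their libraries. The exceptions were the step below the 50 pg RfxCas13d knockdown for npm2a and zar1, and for zp3a.1 the step between the 10 pg RfxCas13d controls and the 10 pg DjCas13d knockdown next below them. For zp3b and zp3a.1, levels differed between sets of controls as well. Zp3b stood at 64.24 to 91.1 TPM in the 6 RfxCas13d controls, 57.11 to 75.81 TPM in the 6 DjCas13d controls and 18.2 to 38.66 TPM in the 7 Cas7-11 controls. For zp3a.1 the RfxCas13d controls (80.32 to 95.11 TPM) stood above the Cas7-11 controls (38.52 to 72.35 TPM). The control ranges of all effectors overlapped for npm2a, npm2b, zp2.1 and zar1. Sequencing depth was higher with Cas7-11 and overlapped between RfxCas13d and DjCas13d. Effector and library set cannot be told apart in this comparison.

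**Figure D1:**
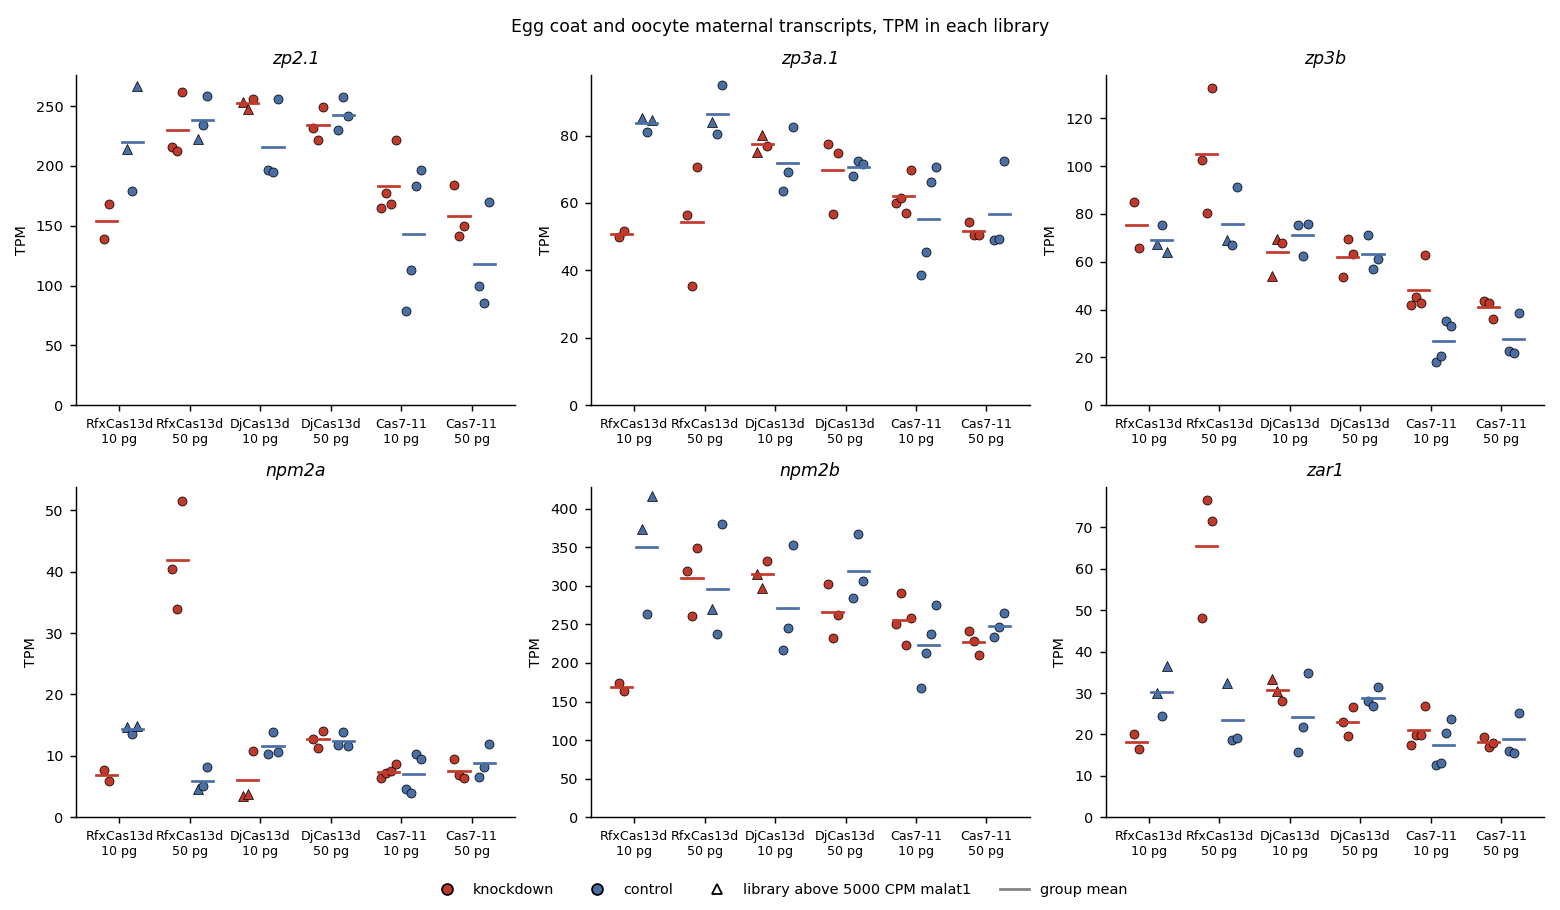
TPM of each of the 6 transcripts in each library, by effector and GFP dose, knockdown in red to the left of control in blue. Horizontal lines are group means and triangles mark the 5 malat1-rich libraries. The knockdown libraries of RfxCas13d at 50 pg stand above all others for npm2a (33.97 to 51.44 TPM) and zar1 (48.02 to 76.62 TPM), while both RfxCas13d knockdown groups lie below their controls for zp3a.1.

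The values of zp2.1 carry a limit that the other 5 do not share to the same degree. Multimapping reads have a summary entry of their own and enter no gene's count, so near-identical zp copies can lose reads. The reads counted for zp2.1, in CPM per unit of TPM and after a factor per library, had a median of 0.0574 over the 37 libraries. For the other members this ratio was 0.448 (npm2b) to 0.975 (zp3b). Only 0.0226% of 8842 genes compared had a lower ratio than zp2.1. TPM are divided by transcript length and CPM are not, so the ratio also varies with length, which was not corrected for. How many of the reads of zp2.1 are missing from its counts was not measured. The ratio was also unsteady for zp2.1, with a 3.51-fold range over the libraries, wider than that of 98.7% of these genes. For the other members it varied by 1.11-fold (npm2b) to 1.4-fold (npm2a). At 10 pg with RfxCas13d the ratio averaged 0.069 in the knockdown and 0.105 in the controls, so the fold change of zp2.1 there is larger in counts than in TPM.

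**Figure D2:**
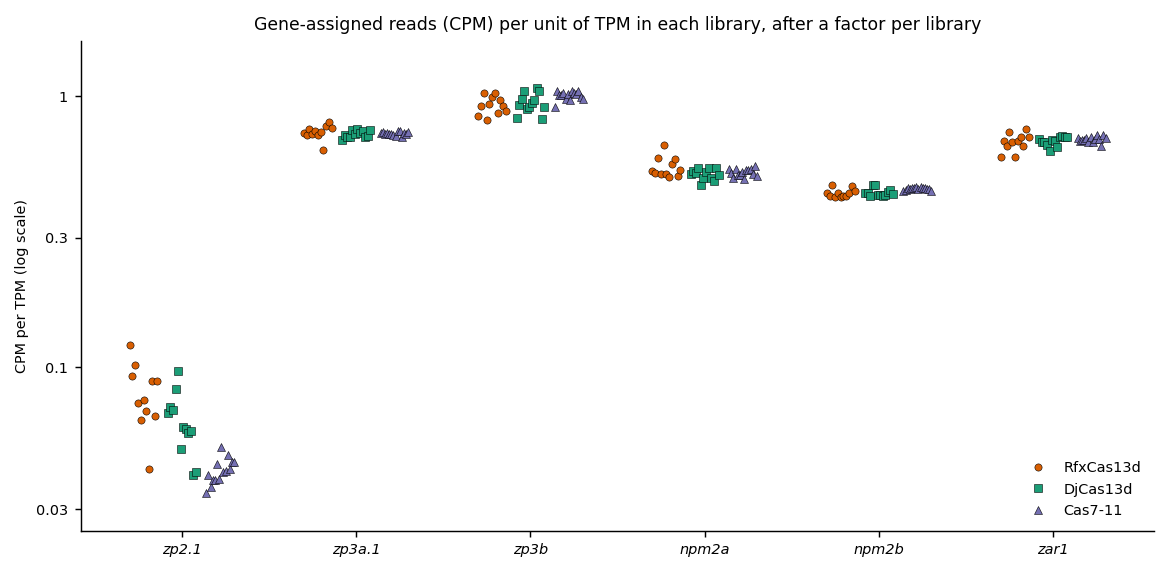
Reads counted per gene (CPM) per unit of TPM, on a log scale, for each of the 6 genes in each library, with the libraries of each effector side by side, after division by a factor per library. Zp2.1 lies between 0.0344 and 0.121 and the other 5 genes lie above 0.4 in every library.

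With RfxCas13d at 50 pg the 6 transcripts split. Npm2a and zar1 rose, zp3a.1 and npm2b fell, and zp2.1 and zp3b did not pass the test. The counts were tested with edgeR's quasi-likelihood test after TMM scaling, with Benjamini-Hochberg adjustment over all genes and a threshold of 0.05. All fold changes below are on the log2 scale, knockdown over control, with their SE. Of all genes tested, 58.8% passed in this comparison, 30% higher and 28.8% lower, so 4 of 6 members past the threshold is close to the share of all genes. Directions here depend on the scaling. The median log2 fold change of all genes was 0.05 with TMM, 0.64 when libraries were scaled by their size alone and 0.60 in limma on log2(TPM + 1), and the share of calls that were higher was 51.1%, 74.5% and 79.6% in these 3. With library size alone npm2b, zp2.1 and zp3b stood at 0.028, 0.221 and 0.306. Measured against that median, they lay at -0.61, -0.42 and -0.33, close to the values with TMM.

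Among the egg coat transcripts, zp3a.1 had 56.56, 35.3 and 70.79 TPM in the knockdown, against 84.13, 80.32 and 95.11 TPM in the controls. All 3 knockdown libraries lay below all 3 controls. In the counts zp3a.1 fell by 1.22 ± 0.24 (edgeR, adjusted p = 7.19e-05), and it stayed past the threshold whichever library was left out (-1.345 to -0.936). The size of this fall depends on the scaling. It was -0.626 with library size alone and -0.716 in limma on log2(TPM + 1). Measured against the median of all genes, these lay at -1.264 and -1.318. Zp3b, a second ZP3-type coat protein, had 102.49, 80.58 and 132.61 TPM in the knockdown, against 69.22, 67.06 and 91.1 TPM in the controls. The arms overlapped, and the log2 fold change was -0.28 ± 0.24 in counts (edgeR, adjusted p = 0.318) but 0.45 in limma on log2(TPM + 1), where all genes shifted as given above. Zp2.1, of the ZP2 type, had 215.68, 212.58 and 261.7 TPM in the knockdown, against 222.6, 234.06 and 258.72 TPM in the controls. These ranges overlap as well, and the log2 fold change in counts was -0.39 ± 0.38 (edgeR, adjusted p = 0.379).

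The nucleoplasmin transcripts differed from each other. Npm2a had 40.47, 33.97 and 51.44 TPM in the knockdown, against 4.61, 5.04 and 8.12 TPM in the controls. The lowest knockdown library was above the highest control, and also above every other library of the series. In reads these were 144, 64 and 183 in the knockdown and 21, 23 and 26 in the controls. Npm2a rose by 2.195 ± 0.357 (edgeR, adjusted p = 5.08e-06), with 2.08 to 2.44 when single libraries were left out. Npm2b had 319.81, 260.26 and 349.59 TPM in the knockdown, against 269.89, 237.69 and 379.87 TPM in the controls, which overlap. After TMM scaling its counts were 127, 81.4 and 113 CPM in the knockdown and 164, 137 and 170 CPM in the controls, and here the arms did not overlap. The fall of npm2b, -0.55 ± 0.22 (edgeR, adjusted p = 0.0334), depends on this scaling. With size factors in place of TMM the log2 fold change was -0.48, and it no longer passed. It lost the call at a like size without control replicate 1 (-0.515, adjusted p = 0.0803), control replicate 3 (-0.491, adjusted p = 0.0843) or knockdown replicate 3 (-0.564, adjusted p = 0.0643). Without knockdown replicate 2 it was smaller (-0.368, adjusted p = 0.208).

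Zar1 had 48.02, 76.62 and 71.63 TPM in the knockdown, against 32.42, 18.57 and 19.2 TPM in the controls. The arms did not overlap, and the highest control was the library with high malat1. Zar1 rose by 0.82 ± 0.29 (edgeR, adjusted p = 0.0171). It did not pass without control replicate 2 (0.726, adjusted p = 0.0672), control replicate 3 (0.628, adjusted p = 0.09) or knockdown replicate 2 (0.743, adjusted p = 0.057). Without the malat1-rich libraries zar1 was higher by 1.115 (edgeR, adjusted p = 0.00372), and with library size alone by 1.45. Measured against the median of all genes, the value with library size alone lay at 0.81, close to that with TMM. In scaled CPM the arms stood closer than in TPM, at 28.5 to 39.1 CPM in the knockdown and 14.2 to 27.6 CPM in the controls.

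**Figure D3:**
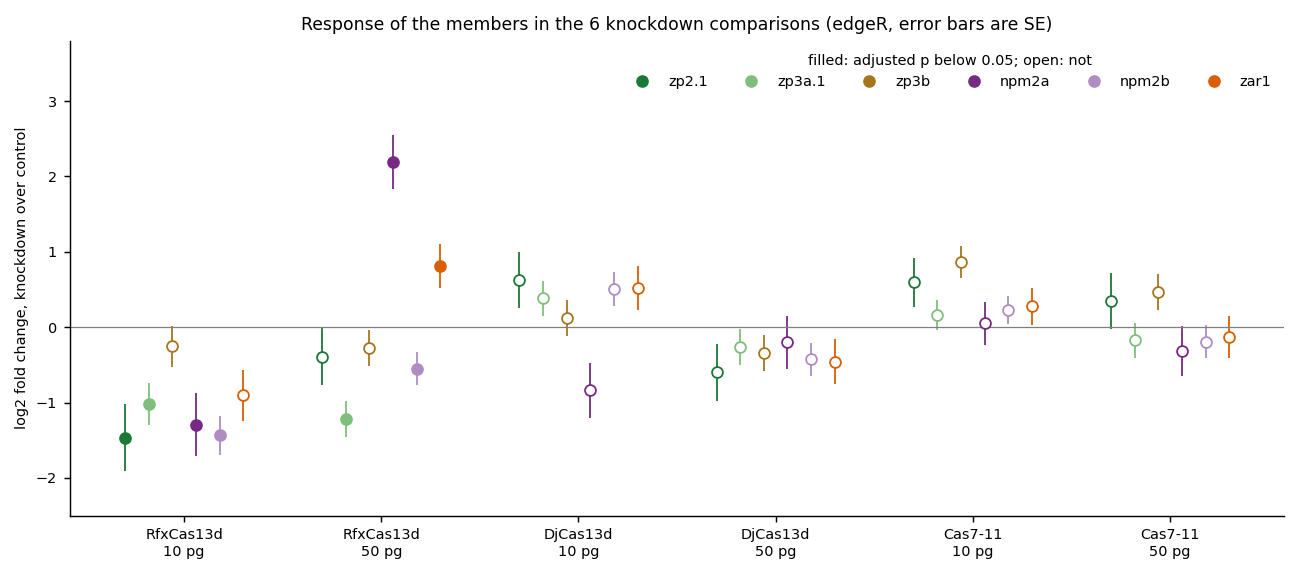
Log2 fold change of knockdown over control (edgeR, points, with SE as bars) for the 6 genes in the 6 comparisons. Filled points have an adjusted p below 0.05. Filled points occur with RfxCas13d, 4 at each dose, from -1.47 (zp2.1 at 10 pg) to 2.195 (npm2a at 50 pg).

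Of the 14 other zp genes tested at 50 pg RfxCas13d, 5 rose, 1 fell and 8 did not pass, beside 30% of all genes higher and 28.8% lower, with a median log2 fold change of 0.21 against 0.05 for all genes. With library size alone 8 rose, and in limma on TPM 11, while 1 fell in both. Zp3a.2, the named companion of zp3a.1, had 50.3 TPM in the knockdown and 146 TPM in the controls on average, and fell by 2.14 (edgeR, adjusted p = 2.31e-08). It was the 1 zp gene that fell besides zp3a.1. Zp3d.1 rose by 1.82 ± 0.37 (edgeR, adjusted p = 0.000131), zp3c by 1.43 ± 0.41 (adjusted p = 0.00389) and zp3f.1 by 1.06 ± 0.30 (adjusted p = 0.00384). All of these are ZP3-type genes of the egg coat. The summed level of the 11 zp3 genes was 1100 ± 225 TPM in the knockdown and 713 ± 42.4 TPM in the controls (SD, n = 3 each). The 5 numbered zp2 genes summed to 766 ± 140 TPM in the knockdown and 608 ± 33.8 TPM in the controls. These sums are higher by 0.63 and 0.33 on the log2 scale, beside 0.60 for the median gene in limma on log2(TPM + 1).

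Zar1l, the paralog of zar1, rose by 2.36 ± 0.26 (edgeR, adjusted p = 8.57e-09), with 121 TPM in the knockdown and 14.6 TPM in the controls on average. The somatic nucleoplasmins fell. Npm1a, the nucleophosmin of ribosome assembly, fell by 1.49, npm1b by 1.29 and npm3 by 1.70 (edgeR, adjusted p = 9.79e-10, 4.06e-06 and 8.82e-09). In TPM npm1a averaged 1270 in the knockdown and 1990 in the controls, and npm3 averaged 106 and 182. Npm1b averaged 36.9 TPM in the knockdown and 34.9 TPM in the controls, so its fall is in scaled counts and not in TPM.

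Other genes of the oocyte and egg moved further than the 6 members. Of 30 tested, 27 rose and 3 fell, beside 30% of all genes higher and 28.8% lower. Their median log2 fold change was 3.10, against -0.335 for the 6 members and 0.05 for all genes. The list was chosen with earlier results of these data known, so its counts describe these libraries and are not independent support. The count of 27 was the same under each of the 9 alternative scalings, tests, filters and library choices tried for it. Only genes kept by the main filter were counted, so the setting without a filter could not add a gene. Btg4, which recruits the deadenylase that removes poly(A) tails from maternal mRNAs, had 276 TPM in the knockdown and 4.30 TPM in the controls and rose by 5.20 ± 0.39 (edgeR, adjusted p = 1.92e-11). Buc, the organizer of the Balbiani body, rose by 4.97 ± 0.46 (adjusted p = 9.79e-10), slbp2, the oocyte stem-loop binding protein of histone mRNAs, by 4.59 ± 0.50 (adjusted p = 7.84e-09), and dazl, a germ plasm RNA-binding protein, by 3.86 ± 0.37 (adjusted p = 9.8e-10). In the controls, the 27 genes that rose had a median of 8.48 TPM (0.93 to 163), below zp3a.1, zp3b, npm2b and zp2.1 in the same libraries (75.8 to 296 TPM). In the knockdown their median was 136 TPM. The members that rose, npm2a and zar1, were the 2 with the lowest levels in the controls, at 5.92 and 23.4 TPM. The same control libraries enter the fold changes that define which genes rose. Low control levels among them are thus partly set by that choice, and a link of level and response was not tested. The 3 oocyte genes that fell, ybx1 (a maternal mRNA-packaging protein), ccnb1 (cyclin B1) and igf2bp3 (an mRNA-binding protein), had 49.9 to 1300 TPM in the knockdown and 59.2 to 3000 TPM in the controls. Of these 3, 2 fell with library size alone and 1 in limma on TPM.

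Markers of other sources moved in the same libraries. The 12 follicle cell markers summed to 2.44 to 6.04 TPM in the 50 pg RfxCas13d knockdown and 1.33 to 2.18 TPM in its controls. These sums are low and did not overlap. Only 3 of the 12 markers had enough reads to be tested, of which 1 fell and none rose. Of 18 early zygotic patterning genes, which the embryo transcribes itself, 12 fell and 4 rose, beside 28.8% of all genes lower and 30% higher. Their median log2 fold change was -0.98, while 7 fell with library size alone and 9 in limma on TPM. Eve1, a ventral homeobox gene, fell by 2.80 (edgeR, adjusted p = 2.19e-09) and gata2a fell by 2.596 (adjusted p = 7.25e-11). Sox2, a gene of the early neural plate, fell by 2.45 (adjusted p = 2.88e-08), while her5, a neural repressor, rose by 2.70 (adjusted p = 1.13e-10). In whole embryos, fewer cells of a type and less RNA per cell cannot be told apart. The part of these shifts, and of the stage of the embryos, in the values of the members was not tested.

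**Figure D4:**
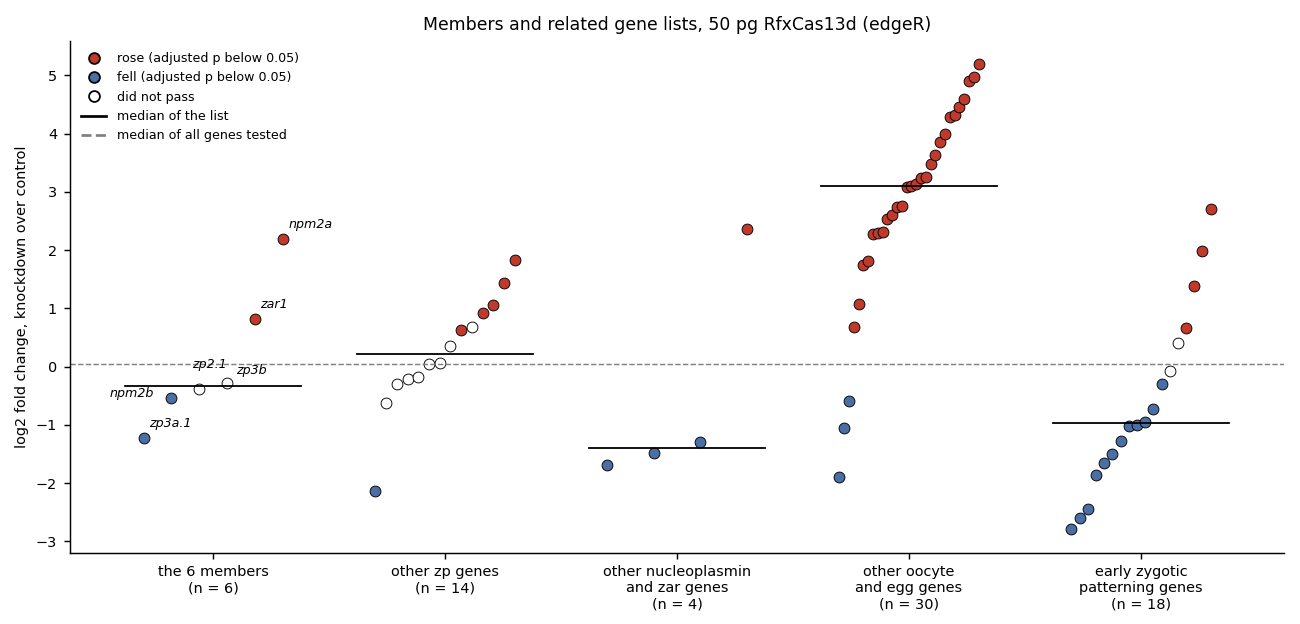
Log2 fold change of knockdown over control at 50 pg RfxCas13d (edgeR) for the 6 members and for 4 lists of related genes, sorted within each list. Red points rose, blue points fell and white points did not pass. Solid lines are list medians and the dashed line is the median of all genes tested (0.05). The other oocyte and egg genes reach 5.20, whereas the members range from -1.22 to 2.195.

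With RfxCas13d at 10 pg, 4 of 6 transcripts fell in the knockdown: npm2a, npm2b, zp2.1 and zp3a.1. Of all genes tested, 14% passed, 7% higher and 6.98% lower. The share of calls that were higher was 50.1% with TMM, 63.8% with library size alone and 81.5% in limma on TPM. Npm2b had 174.04 and 164.14 TPM in the knockdown, against 373.05, 263.66 and 416 TPM in the controls, and fell by 1.43 ± 0.26 (edgeR, adjusted p = 0.00176). Zp3a.1 had 50.02 and 51.73 TPM in the knockdown, against 85.13, 81.12 and 84.48 TPM in the controls, and fell by 1.02 ± 0.27 (adjusted p = 0.0155). Npm2a had 7.75 and 5.94 TPM in the knockdown, against 14.69, 13.54 and 14.86 TPM in the controls, and fell by 1.29 ± 0.42 (adjusted p = 0.0367). In these 3 genes the arms did not overlap in TPM. In scaled CPM every knockdown library was below every control for all 6 members. With 2 libraries against 3 such a separation is easily reached, and its share over all genes was not computed here.

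Zp2.1 had 139.17 and 168.21 TPM in the 10 pg RfxCas13d knockdown, against 214.03, 179.38 and 266.89 TPM in the controls, again without overlap. It fell by 1.47 ± 0.44 in counts (edgeR, adjusted p = 0.0278), but its log2 fold change was -0.50 in limma on log2(TPM + 1) and did not pass there (adjusted p = 0.175). Zar1 had 20.02 and 16.43 TPM in the knockdown, against 30.01, 24.5 and 36.52 TPM in the controls, with a log2 fold change of -0.90 ± 0.34 (edgeR, adjusted p = 0.0708), which passed without control replicate 2 (-1.111, adjusted p = 0.0204). Zp3b had 84.98 and 65.88 TPM in the knockdown, against 67.57, 75.28 and 64.24 TPM in the controls, which overlap in TPM. Its log2 fold change in counts was -0.25 ± 0.27 (edgeR, adjusted p = 0.56).

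Of the 3 controls in this comparison, 2 are malat1-rich. For npm2b the malat1-rich controls were the highest, and the remaining control, at 263.66 TPM, stood closest to the knockdown. This control was also the lowest of the 3 for npm2a (13.54 TPM), zp2.1 (179.38 TPM), zp3a.1 (81.12 TPM) and zar1 (24.5 TPM). For zp3b it was the highest (75.28 TPM). Without the malat1-rich libraries, which leaves 1 control assumed to vary like the other groups, no member passed. The log2 fold changes were then -0.87 for npm2a, -0.66 for npm2b, -0.69 for zp2.1 and -0.68 for zp3a.1, with adjusted p between 0.483 and 0.704, and 1 gene passed of all genes. In a fit of the 2 groups alone the folds were as large as in the full fit, at -1.325 for npm2a, -1.47 for npm2b, -1.5 for zp2.1 and -1.051 for zp3a.1, but no member and no other gene passed (adjusted p of these 4 from 0.0878 to 0.109). Npm2a, zp2.1 and zp3a.1 each lost the call when control replicate 1, control replicate 3, knockdown replicate 1 or knockdown replicate 2 was left out (adjusted p from 0.0683 to 0.193). Their folds then stayed near those of the full fit, at -1.309 to -1.157 for npm2a, -1.486 to -1.299 for zp2.1 and -1.054 to -0.94 for zp3a.1. Npm2b kept the call in each case. Npm2a also missed the threshold with library size alone (-1.165, adjusted p = 0.0607) and without the filter on low counts (-1.298, adjusted p = 0.0584).

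Some relatives fell at 10 pg as well. The 14 other zp genes had a median log2 fold change of -1.03, against -1.16 for the 6 members and 0.01 for all genes. Of these 14 genes 7 fell and none rose, beside 6.98% of all genes lower and 7% higher. These include zp2.5 (-1.68 ± 0.43, edgeR, adjusted p = 0.013), zp3a.2 (-1.33 ± 0.28, adjusted p = 0.0038), zp2l1 (-1.25 ± 0.28, adjusted p = 0.00589) and zp3f.2 (-1.24 ± 0.38, adjusted p = 0.0295). None of the 14 passed without the malat1-rich libraries, where the median was -0.35, and 2 fell in limma on TPM. Zar1l fell by 0.90 ± 0.30 (edgeR, adjusted p = 0.0413) and npm1b by 0.95 ± 0.23 (adjusted p = 0.00968), while npm1a and npm3 did not pass. Of the 30 other oocyte and egg genes 1 fell, the oocyte linker histone h1m (-1.28 ± 0.44, edgeR, adjusted p = 0.0471), and none rose. These calls did not exceed the shares of all genes. No gene of this list fell in limma on TPM or without the malat1-rich libraries. The 12 follicle cell markers summed to 2.54 to 4.18 TPM in the knockdown and 1.39 to 1.72 TPM in the controls, without overlap. These sums are low, and none of the 3 markers with enough reads to be tested passed. Of the 18 early zygotic genes 1 rose and 2 fell, near the shares of all genes.

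The responses to RfxCas13d at the 2 doses were compared directly in 1 model, which uses the controls of each dose. The log2 fold change at 50 pg minus that at 10 pg was 3.49 ± 0.55 for npm2a (edgeR, adjusted p = 1.39e-05), 1.72 ± 0.45 for zar1 (adjusted p = 0.00301) and 0.89 ± 0.34 for npm2b, which fell less at 50 pg than at 10 pg (adjusted p = 0.0343), with 40.7% of all genes past the threshold, 19.8% higher. The difference was 1.075 ± 0.574 for zp2.1 (adjusted p = 0.133), -0.20 ± 0.36 for zp3a.1 (adjusted p = 0.677) and -0.03 ± 0.36 for zp3b (adjusted p = 0.958). For npm2b it was 0.12 without the malat1-rich libraries (adjusted p = 0.837). It also lost the call without any 1 of 7 of the 11 libraries: replicate 1 or 3 of the 10 pg controls, either 10 pg knockdown, control replicate 2 at 50 pg, or knockdown replicate 1 or 3 at 50 pg (0.65 to 0.883). In the full fit npm2a thus fell at 10 pg and rose at 50 pg, and zp3a.1 fell at both doses. Both calls at 10 pg were lost with the replicate block and with only the groups compared. For npm2a the 10 pg knockdown libraries (5.94 and 7.75 TPM) lay within the range of the 50 pg controls (4.61 to 8.12 TPM). The responses of DjCas13d and of Cas7-11 were compared between doses in the same way, with 0% of all genes past the threshold and no member. For DjCas13d 3 members, npm2b, zp2.1 and zar1, had an unadjusted p below 0.05 (-0.94, -1.23 and -0.97), and 2 members passed without knockdown replicate 3 at 10 pg. For Cas7-11 no member had an unadjusted p below 0.05.

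With DjCas13d no member passed at 10 pg or at 50 pg, where 0% and 0.00613% of all genes passed. At 10 pg, 2553 genes had an unadjusted p below 0.05, npm2a and npm2b among them, and at 50 pg 1528 genes and no member. DESeq2 called 98 and 44 genes and no member, and limma on TPM 2 genes at each dose and no member. With only the groups compared, many more genes passed at 50 pg (counted in the closing section on processing), but again no member. At 10 pg npm2a had 3.5, 3.71 and 10.79 TPM in the knockdown, against 10.33, 13.81 and 10.61 TPM in the controls. The first 2 of these are the malat1-rich libraries, and the third stands among the controls. The log2 fold change was -0.84 ± 0.37 (edgeR, adjusted p = 0.276), and -1.39 without knockdown replicate 3 (adjusted p = 0.0249). Npm2b had 315.62, 296.61 and 332.5 TPM in the knockdown, against 217.11, 245.05 and 352.68 TPM in the controls, with a log2 fold change of 0.51 ± 0.22 (edgeR, adjusted p = 0.275). The other 4 lay between 0.12 (zp3b) and 0.63 (zp2.1), with overlapping arms.

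At 50 pg DjCas13d all 6 log2 fold changes were below 0, from -0.60 ± 0.38 (zp2.1, edgeR, adjusted p = 0.64) to -0.20 ± 0.35 (npm2a, adjusted p = 0.876). Zar1 had 22.97, 19.57 and 26.55 TPM in the knockdown, against 28.03, 26.87 and 31.42 TPM in the controls. Its arms did not overlap, by a gap of less than 1 TPM, and its log2 fold change was -0.46 ± 0.29 (edgeR, adjusted p = 0.643). The other 5 overlapped in TPM. In scaled CPM every knockdown library of zp2.1, zp3a.1, zp3b, npm2b and zar1 was below every control, as for 12.2% of all genes tested, and npm2a overlapped. Npm2a stood at 12.82, 11.31 and 13.99 TPM in the knockdown and 11.81, 13.82 and 11.56 TPM in the controls.

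With Cas7-11 no member passed at 10 pg or at 50 pg, where 0.0735% and 0.0613% of all genes passed. At an unadjusted p below 0.05 there were 423 genes, zp3b among them, at 10 pg, and 525 genes and no member at 50 pg. The largest shift at 10 pg was that of zp3b, with 42.12, 45.4, 42.61 and 62.99 TPM in the knockdown, against 18.2, 20.75, 35.05 and 33.1 TPM in the controls. All 4 knockdown libraries were above all 4 controls. The log2 fold change was 0.87 ± 0.21 (edgeR, adjusted p = 0.164). DESeq2 called it, with 0.87 and an adjusted p of 0.0224, and limma on TPM did not. At 50 pg zp3b had 43.7, 42.68 and 36.26 TPM in the knockdown, against 22.55, 21.79 and 38.66 TPM in the controls, which overlap (0.47 ± 0.24, edgeR, adjusted p = 1).

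The Cas7-11 controls varied among themselves. At 10 pg npm2a had 4.63, 4.01, 10.34 and 9.53 TPM in control replicates 1 to 4, and the first pair was below the second pair for the other 5 members too, such as zp2.1 with 78.42, 113.22, 183.11 and 196.41 TPM. At 50 pg control replicate 3 was the highest of its 3 controls for all 6 members. In the 10 pg knockdown npm2a was at 6.33 to 8.66 TPM and zp2.1 at 165.09 to 221.41 TPM, so the arms overlapped. Log2 fold changes of the members other than zp3b ran from 0.05 (npm2a) to 0.60 (zp2.1) at 10 pg and from -0.32 (npm2a) to 0.35 (zp2.1) at 50 pg. No gene of the 5 lists of relatives, oocyte and egg genes, follicle markers and zygotic genes passed in the DjCas13d or Cas7-11 knockdown comparisons.

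At 50 pg the responses were compared between effectors. The response to RfxCas13d exceeded that to DjCas13d by 2.40 ± 0.50 for npm2a (edgeR, adjusted p = 0.000432) and 1.27 ± 0.41 for zar1 (adjusted p = 0.0177), and was lower for zp3a.1 (-0.96 ± 0.34, adjusted p = 0.0268), with 33.3% of all genes past the threshold, 15.8% higher and 17.5% lower. Against Cas7-11 the difference was 2.51 ± 0.48 for npm2a (edgeR, adjusted p = 0.000119), -1.04 ± 0.33 for zp3a.1 (adjusted p = 0.0113) and 0.95 ± 0.41 for zar1 (adjusted p = 0.0564), with 45.3% of all genes past it, 22.7% higher and 22.6% lower. These comparisons share the RfxCas13d libraries. The differences of zp3a.1 are the less steady ones. Against DjCas13d the adjusted p was 0.0512 to 0.114 without RfxCas13d control replicate 1 or 2, RfxCas13d knockdown replicate 2, DjCas13d control replicate 3, or DjCas13d knockdown replicate 1 or 3 (-0.924 to -0.673), and against Cas7-11 it was 0.0549 without RfxCas13d knockdown replicate 2 (-0.764). Neither passed with library size alone (-0.494 and -0.482) or in limma on TPM (-0.684 and -0.608). Between DjCas13d and Cas7-11 no member passed, with 0.00613% of all genes past the threshold and 1 member, zp3b, at an unadjusted p below 0.05 (-0.80 ± 0.34, edgeR, adjusted p = 0.908).

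Controls at 50 pg were also set against controls at 10 pg, and no member passed for any effector. The background was 1.7% of all genes with RfxCas13d (0.723% higher, 0.974% lower) and 0% with DjCas13d and with Cas7-11. With RfxCas13d npm2a had 4.61, 5.04 and 8.12 TPM in the 50 pg controls, against 14.69, 13.54 and 14.86 TPM in the 10 pg controls, without overlap (-1.22 ± 0.36, edgeR, adjusted p = 0.0674). It passed in DESeq2, in limma on TPM, and in edgeR without replicate 2 of the 10 pg controls or replicate 3 of the 50 pg controls. The low npm2a in the 50 pg controls enters the rise of npm2a at that dose, and the higher npm2a in the 10 pg controls enters its fall at 10 pg. The 50 pg knockdown libraries stood above the 10 pg controls as well. For DjCas13d and Cas7-11 no member had an unadjusted p below 0.05 in this comparison.

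Across the 37 libraries, transcripts were ranked by how closely they followed each member in log2 scaled CPM, over 10500 genes, as a description that spans the 12 groups and their differences in depth. Zp2.1 was followed most closely by zp2.3 (Pearson r = 0.948, n = 37) and zp3 (r = 0.912). Zp3b was followed by zp2.1 (r = 0.908) and zp3 (r = 0.906). All of these are egg coat genes. Multimapping reads are not in these counts, and near-identical egg coat copies can lose reads from them. The closest to zp3a.1 were pnrc2 (r = 0.929) and KLHL12 (r = 0.925), and to npm2b gpx4b (r = 0.884) and stmp1 (r = 0.88). Npm2a was followed by gnai2b (r = 0.917) and thy1 (r = 0.912), and zar1 by nme2b.1 (r = 0.922) and brdt (r = 0.914). Among the members themselves, the correlation of npm2a with zp3a.1 was 0.045 over the 37 libraries, 0.41 without the 50 pg RfxCas13d knockdown and 0.542 for deviations from the group means. For zar1 with zp3a.1 these were 0.42, 0.894 and 0.622. For zp2.1 with zp3b they were 0.908, 0.909 and 0.831.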

How the data were processed

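RNA of 37 whole-embryo libraries was analysed. TRIzol extraction and a directional library kit are named per the labels' protocols, and the build, danRer11, per the submitters' processing notes. Aligner, counter and strand setting: not given in the sources used. The authors deposited whole-number counts of reads per gene, not normalized, with 4 summary entries that held 17.29% to 26.41% of reads and were left out. The authors also deposited TPM values, which sum to 999998.8 to 1000001.05 per library. The deposited TPM tables gave symbols for 20859 genes, and a table of gene names gave 8382 more. Positions and sequences were not used.

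The main test was edgeR 4.0.16 (R 4.3.3) on the counts: filterByExpr on the 12 groups (16321 genes), TMM scaling, 1 robust quasi-likelihood fit of all 37 libraries with a coefficient per group, 15 contrasts, and Benjamini-Hochberg adjustment over all genes at 0.05. The biological coefficient of variation was 0.253. DESeq2 1.42.0 and limma 3.58.1 on log2(TPM + 1), or with 0.1 added, were alternatives, with other scalings, no filter, replicates left out and a replicate block. A fold change on the log2(TPM + 1) scale understates changes of low values. Scaled CPM are CPM computed after TMM. The fit was tested on simulated data with 200 of 16321 genes changed per comparison, far fewer than passed with RfxCas13d at 50 pg. It recovered 21.1% to 29.7% of 2-fold changes with RfxCas13d and DjCas13d, and 45.5% to 55.1% with Cas7-11. Of 4-fold changes it recovered 66.4% to 71.7% and 83.9% to 91.2%. A member that did not pass may thus have changed. All 40 pairs of replicates differed by more than counting noise (chi-square per degree of freedom 3.2 to 58.4).

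The 6 genes, the gene lists and the tests were chosen with earlier results of these data known. Named are the 6 members in every comparison, in each list up to 4 genes with the smallest adjusted p, and for each member the 2 genes with the highest correlation. The 3 oocyte genes that fell were singled out after their values were seen, and list counts under alternatives were added then too. Overlapping and antisense genes and near-identical copies are uncertain. For Cas7-11 at 10 pg, deviations of same-numbered libraries from their group means correlated at 0.505, 0.342, 0.28 and 0.41, all above 0.1. Differently numbered libraries within replicates 1 and 2, or within 3 and 4, correlated at 0.413, 0.181, 0.295 and 0.446. Libraries across these sets correlated at -0.473 to -0.253. The pattern thus followed replicates 1 and 2 against 3 and 4, and does not show pairs by title number. In the other comparisons same-numbered libraries did not all correlate above 0.1. The main fit used no replicate block.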

Additional observations from a re-analysis of the deposited data

Results flagged for a closer look

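In the 4 knockdown libraries of Cas7-11 at 10 pg, replicate 4 stood apart for zp3b, at 62.99 TPM against 42.12 to 45.4 TPM in the other 3. Its gap to the nearest library was 0.843 of the range of the group. It was the 1 such case among 12 sets of 4 libraries examined for the members. Chance gives about 1 in 20 for each set, so 1 case among 12 is not unusual. The sets also share libraries and are not independent.

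The response of 4 members differed between doses or effectors by a test of the difference itself (edgeR, log2 scale, the adjusted p standing in the report). Between 50 pg and 10 pg RfxCas13d the difference was 3.488 for npm2a, 1.721 for zar1 and 0.886 for npm2b. At 50 pg the response to RfxCas13d minus that to DjCas13d was 2.397 for npm2a, 1.273 for zar1 and -0.958 for zp3a.1. At 50 pg the response to RfxCas13d minus that to Cas7-11 was 2.511 for npm2a and -1.045 for zp3a.1. Of all genes tested, 40.7%, 33.3% and 45.3% passed in these comparisons, in this order. The differences of npm2a kept their call when any 1 library was left out, at 3.35 to 3.749, 2.276 to 2.641 and 2.194 to 2.752. Those of zar1 did as well, at 1.491 to 2.05 between doses and 1.085 to 1.6 against DjCas13d. The difference of npm2b lost its call in 7 of 11 cases (0.65 to 1.172 over all). That of zp3a.1 lost it in 6 of 12 cases against DjCas13d (-1.114 to -0.673 over all). Against Cas7-11 it lost it in 1 of 12 (-1.266 to -0.764 over all).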

How the results depend on the processing

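Over 15 comparisons and the alternatives that keep all or most libraries, the count of members called stayed within 1.5 times in 126 cases, was lower in 4 and higher in 5. Most of these comparisons had no member past the threshold in the main fit, and there a count that remained at 0 was tallied as unchanged. The tally compares counts and not which members passed, so it says little of how steady the calls are. With RfxCas13d at 10 pg, where 4 members passed, 0 did without the malat1-rich libraries, 0 with only the groups compared and 1 with the replicate block (npm2b, adjusted p = 0.0374). With RfxCas13d at 50 pg, 2 of the 4 remained in number with only the groups compared, npm2a and zp3a.1. DESeq2 called 1 member with Cas7-11 at 10 pg, zp3b. In the 50 pg against 10 pg RfxCas13d controls DESeq2 and limma with either pseudocount called 1, npm2a. With the replicate block 4 members passed between the responses to RfxCas13d and Cas7-11 at 50 pg, against 2. Over all genes, calls at 10 pg RfxCas13d numbered 2281, against 1 without the malat1-rich libraries, 0 with only the groups compared, 348 with the replicate block and 1475 without a filter. At 50 pg RfxCas13d they numbered 9594, against 6012 with only the groups compared. DESeq2 called 98 and 44 genes with DjCas13d (edgeR 0 and 1, and 979 at 50 pg with only the groups compared), and 29 and 32 with Cas7-11 (edgeR 12 and 10), at 10 pg and 50 pg. The replicate block changed no member's call with Cas7-11 at 10 pg. When single libraries were left out, the counts ran from 1 to 5 (RfxCas13d, 10 pg), 2 to 4 (RfxCas13d, 50 pg), 0 to 1 (DjCas13d, 10 pg), 0 to 1 (50 pg against 10 pg RfxCas13d controls), 0 to 2 (DjCas13d, between doses) and 1 to 4 (RfxCas13d minus Cas7-11). Directions reversed for values that did not pass, except npm2b at 50 pg RfxCas13d (0.028 with library size alone, 0.085 in limma with either pseudocount). At that dose zp2.1 went to 0.22 with library size alone, and zp3b to 0.31 with library size alone and 0.45 and 0.46 in limma. In limma zp3b was at 0.12 in both forms at 10 pg RfxCas13d and at -0.16 in both at 10 pg DjCas13d, and npm2a at 0.032 and 0.035 at 50 pg DjCas13d. Without the malat1-rich libraries, zp2.1 and zp3b were at -0.233 and -0.065 at 10 pg DjCas13d. Leaving out single libraries moved zp3b across 0 at 10 pg DjCas13d (-0.008 to 0.253), npm2a at 10 pg (-0.139 to 0.263) and 50 pg Cas7-11 (-0.508 to 0.002), and at 50 pg Cas7-11 zp3a.1 (-0.275 to 0.048) and zar1 (-0.26 to 0.17). The cause was not tested. List counts under alternatives were added after the data were seen. With 12 to 26 reads in some libraries, npm2a is limited most by depth.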
